A study of Drosophila melanogaster with 6 samples.

Results

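The U5 small nuclear RNA is encoded in the fruit fly (Drosophila melanogaster) by several genes, whose products are called U5 variants and are named after the chromosome band of the gene. The variants were taken as every listed transcript whose annotated gene symbol starts with snRNA:U5:, which gave 7 of the 527 listed transcripts that matched the annotation, with 4 more listed but not matched, and all 7 annotated U5 genes were among them. Short RNAs of midguts from female flies were sequenced in 6 libraries to ask which short RNAs change when RNA polymerase III (Pol III) is partly lost. Of these, 3 carried the genotype label dC53EY22749, a P-element insertion in Polr3D (formerly dC53), a subunit found only in Pol III, and the other 3 came from wild-type White Dahomey flies. Per the study's methods the mutants were heterozygous, since flies with both copies disrupted do not survive, the flies were 1 week old, and the mutation had been backcrossed into the same outbred Dahomey background. The insertion is present in every cell of the fly from development on. The labels do not say that the 3 libraries of a genotype came from separate sets of flies, so p values measure the spread between these libraries only. Neither midgut markers nor the Polr3D mRNA were analysed here, and tissue and genotype rest on the labels.

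U5 forms, with its proteins, one of the particles of the spliceosome, the machine that removes introns from messenger RNA precursors. It enters together with U4 and U6 as a triple particle, and a conserved loop of U5 holds the ends of the exons while they are joined. U4 leaves before catalysis, whereas U5 stays. U5 serves both the major spliceosome, with U1, U2, U4 and U6, and the minor one, with U11, U12, U4atac and U6atac. U5 genes are transcribed by Pol II, whereas U6 and U6atac are Pol III products, so U5 is not itself a product of the enzyme that carries the mutation.

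Estimated counts over all listed transcripts ran from 14281566 to 16891428 per library in mutant midguts and from 13465392 to 16830690 in wild-type midguts. U5 held 62515, 72982 and 42019 counts in mutant replicates 1, 2 and 3, against 40264, 41477 and 64134 in wild-type replicates 1, 2 and 3. This is 0.379% ± 0.0961 (SD, n = 3) of all counts in mutant midguts and 0.322% ± 0.0519 (SD, n = 3) in wild-type midguts. Counts were also expressed per 1000000 after TMM scaling of the libraries (CPM).

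The U5 genes lie on 3 chromosomes, and each is annotated as a single exon of 110 to 131 bases on the BDGP6 assembly. U5:63BC (FBtr0073017) is at 3L, 3090801 to 3090923, plus strand. U5:34A (FBtr0080451) is at 2L, 13244848 to 13244974, plus strand, and U5:35D (FBtr0080770) at 2L, 15751557 to 15751682, minus strand. None of these overlaps another gene. U5:23D (FBtr0077658) is at 2L, 3048701 to 3048831, plus strand, inside an intron of FASN2, a fatty acid synthase gene, on the same strand. U5:38ABa (FBtr0081315; 2L, 19811948 to 19812074, minus strand) and U5:38ABb (FBtr0081294; 2L, 19816414 to 19816540, plus strand) both lie in an intron of the gene sick, which is on the plus strand. U5:14B (FBtr0074249) is at X, 16254008 to 16254117, minus strand, and overlaps no other gene.

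One variant, U5:63BC, held most of the U5 counts in every library, and the remaining 6 variants together held 16.5% ± 3.58 (SD, n = 3) in mutant midguts and 19.1% ± 2.14 (SD, n = 3) in wild-type midguts. Per 100 bases of transcript, U5:63BC reached 2749 ± 783 CPM in mutant midguts and 2008 ± 431 CPM in wild-type midguts (SD, n = 3 each). Next came U5:34A, with 242 ± 68.1 CPM per 100 bases in mutant midguts and 208 ± 8.80 in wild-type midguts, and U5:23D, with 177 ± 37.9 in mutant midguts and 170 ± 43.6 in wild-type midguts (SD, n = 3 each). U5:38ABa followed with 58.4 ± 4.27 CPM per 100 bases in mutant midguts and 50.1 ± 9.28 in wild-type midguts, and U5:14B with 30.8 ± 11.7 in mutant midguts and 20.6 ± 5.87 in wild-type midguts. The order of these levels was the same in all 6 libraries. Only U5:34A and U5:23D, neighbours in that order, had ranges over the 6 libraries that overlapped. U5:63BC stood 10.6 times above U5:34A on the mean of all libraries.

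**Figure D1:**
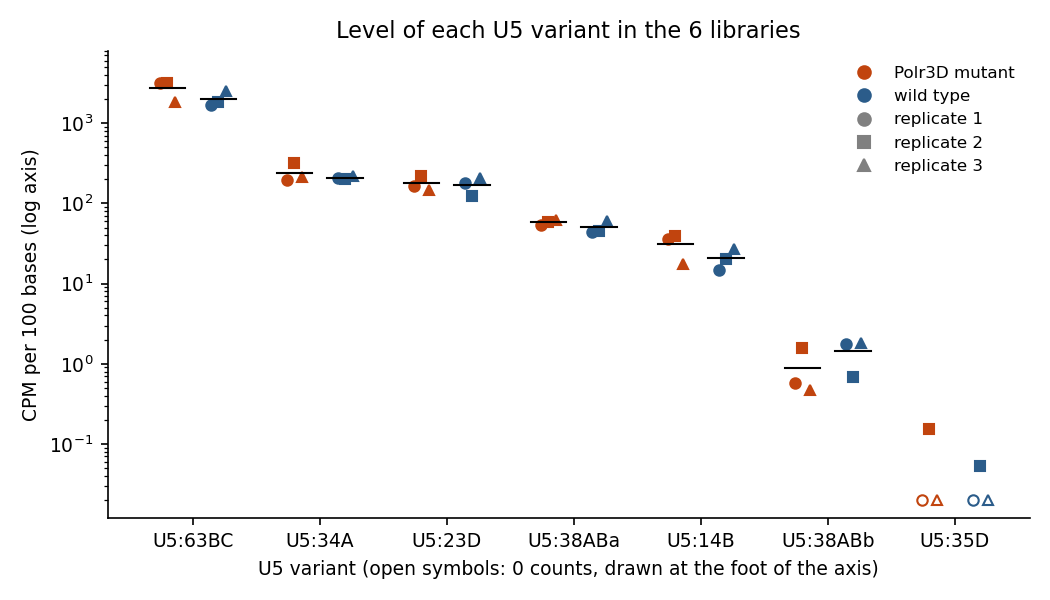
Level of each of the 7 U5 variants in CPM per 100 bases on a log axis. Each symbol is 1 library, with the Polr3D mutant on the left and the wild type on the right of each pair, and bars are means of 3 libraries. U5:63BC lies 10.6 times above U5:34A on average, and U5:35D had 0 counts in 4 of the 6 libraries.

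The last pair was barely detected. U5:38ABb had 10, 31 and 9 counts in mutant replicates 1, 2 and 3, against 34, 13 and 40 in wild-type replicates 1, 2 and 3. U5:35D had 0, 3 and 0 counts in mutant midguts and 0, 1 and 0 in wild-type midguts. A count of 0 allows up to 3 counts, which is at most 0.00745% of the U5 counts of a library, and no fold change is given for U5:35D. These limits cover counting error only.

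Position and level can be set side by side, because 4 of the 7 U5 genes have a U2 gene, which encodes the RNA that pairs with the intron branch site, as their divergent neighbour at most 608 bases away. U5:14B and U2:14B are 554 bases apart, U5:38ABa and U2:38ABb 571, U5:38ABb and U2:38ABa 608, and U5:34A and U2:34ABc 286. At 38AB the better detected member differed between the pairs. U5:38ABa had 945, 1158 and 1172 counts in mutant midguts and 860, 858 and 1326 in wild-type midguts, while its neighbour U2:38ABb had 1, 0 and 0 in mutant midguts and 0, 0 and 1 in wild-type midguts. In the other pair U2:38ABa had 740, 1117 and 773 counts in mutant midguts and 1160, 899 and 1396 in wild-type midguts, beside the few counts of U5:38ABb. At 14B, U2:14B had 70, 171 and 29 counts in mutant midguts and 168, 25 and 223 in wild-type midguts, below U5:14B in every library. U2:34ABc was not among the listed transcripts, so the pair at 34A has no value for its U2 gene. Near-identical copies can exchange reads in the assignment by Salmon, so single copies of U2 and of U5 are uncertain.

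Variant usage, the share of all U5 counts held by a variant, needs no scaling between libraries. U5:63BC held 87.3, 82.8 and 80.2% of U5 counts in mutant replicates 1, 2 and 3, against 78.5, 82.0 and 82.3% in wild-type replicates 1, 2 and 3. The half-width of the 95% Wilson interval of these shares was at most 0.402 percentage points. Mutant replicate 1 was the highest and wild-type replicate 1 the lowest, and the genotypes overlapped. The difference between means was 2.55 percentage points (exact permutation test, two-sided p = 0.4, where 3 libraries against 3 cannot go below 0.1). Without mutant replicate 1 it was 0.620 percentage points, and without mutant replicate 3 it was 4.16.

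Among the minor variants, U5:34A held 5.50, 8.57 and 9.46% of U5 counts in mutant replicates 1, 2 and 3, against 9.89, 9.24 and 7.41% in wild-type replicates 1, 2 and 3. Its mean share differed by -1.004 percentage points (exact permutation p = 0.6, n = 3 each), and by 0.167 without mutant replicate 1. U5:23D held 4.77, 6.06 and 6.81% in mutant midguts replicates, against 8.81, 5.86 and 7.35% in wild-type midguts, which differed by -1.46 percentage points (exact permutation p = 0.3). This difference was -0.907 without mutant replicate 1, -0.730 without wild-type replicate 1 and -2.20 without wild-type replicate 2. For U5:34A and U5:23D alike, mutant replicate 1, which was highest for U5:63BC, was the lowest of the 6 libraries. U5:38ABa held 1.51, 1.59 and 2.79% in mutant midguts, against 2.14, 2.07 and 2.07% in wild-type midguts. Here the wild-type libraries had an SD of 0.0392 percentage points (n = 3) and the mutant libraries spread to both sides of them (difference -0.128 percentage points, exact permutation p = 1). Without mutant replicate 3 the difference was -0.542 percentage points, and the remaining mutant libraries lay below all wild-type libraries. U5:14B held 0.820% ± 0.125 in mutant midguts and 0.739% ± 0.106 in wild-type midguts (SD, n = 3 each). Shares were compared for 7 variants, the genotypes overlapped in each, and the lowest exact permutation p was 0.2, for U5:38ABb. Since shares sum to a fixed total, they are not independent.

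The composition of U5 differed between libraries of 1 genotype far beyond counting error. Over the variants with at least 50 counts in all, the chi-square per degree of freedom between replicates was 38.4 to 222, where sampling noise gives about 1. The differences between genotypes given above therefore have to be set against the spread between replicates, not against counting error. With every library kept, the shares of the genotypes overlapped for each variant.

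**Figure D2:**
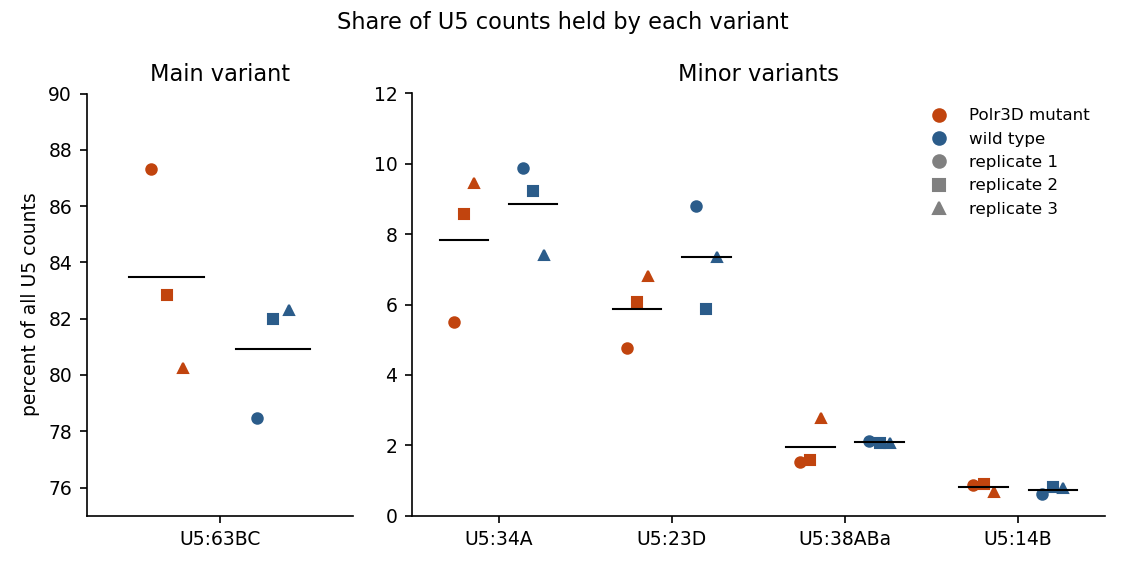
Share of all U5 counts held by U5:63BC (left, axis starting at 75%) and by 4 minor variants (right) in each library, with the Polr3D mutant left of the wild type and bars at the means. The genotypes overlap for every variant, and mutant replicate 1 is highest for U5:63BC at 87.3% and lowest for U5:34A at 5.50%.

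The levels of the variants were then compared between genotypes with edgeR's quasi-likelihood test over 411 transcripts at a Benjamini-Hochberg adjusted p of 0.10. The filter on low counts kept 6 of the 7 U5 variants and removed U5:35D. None of the 6 passed, and none had an unadjusted p below 0.05, where 1.22% of all transcripts passed and 14.8% had an unadjusted p below 0.05. DESeq2 also called 0 U5 variants, with 1 at an unadjusted p below 0.05 and 7.21% of transcripts called, and limma-voom called 0 with 0 below 0.05, where it called 0% of all 411 transcripts. In none of the 6 were the genotypes separated, against 18.7% of all transcripts, 8.03% with every mutant library higher and 10.7% with every mutant library lower. The fold change was above 0 in 5 of the 6, against 44.5% of all transcripts, and the median log2 fold change was 0.22 for the 6 and -0.052 for all transcripts.

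U5:63BC reached 3942, 3931 and 2270 CPM in mutant replicates 1, 2 and 3, against 2076, 2260 and 3073 CPM in wild-type replicates 1, 2 and 3. Mutant replicates 1 and 2 were above every wild-type library, whereas mutant replicate 3 fell among them. Its log2 fold change was 0.45 with a 95% interval of -0.098 to 1.005 (SE 0.24, edgeR adjusted p = 0.407). U5:14B followed the same libraries, with 39.9, 42.7 and 19.1 CPM in mutant midguts, against 16.4, 22.5 and 29.3 CPM in wild-type midguts. At 0.58, its log2 fold change was the highest of the 5 above 0 (interval -0.14 to 1.29, edgeR adjusted p = 0.414). Without mutant replicate 3, both passed, with log2 fold changes of 0.69 for U5:63BC and 0.88 for U5:14B (edgeR adjusted p = 0.0668 and 0.0661), in a fit that called 47 of 417 transcripts. No other library left out gave a call among the U5 variants. Both fold changes are relative to the TMM scaling, and with libraries scaled on nuclear tRNAs they were -0.17 and -0.039. That reference class itself differed between genotypes. Nuclear tRNAs held 2071991, 2566368 and 2521694 counts in mutant replicates 1, 2 and 3, against 1445774, 1571917 and 1905465 in wild-type replicates 1, 2 and 3. Scaling on them therefore lowers the fold changes of other transcripts.

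U5:34A had 248, 407 and 267 CPM in mutant midguts, against 262, 255 and 277 CPM in wild-type midguts, so that mutant replicate 2 lay above the narrow wild-type range, mutant replicate 1 below it and mutant replicate 3 inside it. Its log2 fold change was 0.22 (interval -0.21 to 0.64, edgeR adjusted p = 0.582), and -0.010 without mutant replicate 2. U5:23D had 215, 288 and 193 CPM in mutant midguts, against 233, 162 and 275 CPM in wild-type midguts, which overlapped throughout. Its log2 fold change of 0.055 (interval -0.44 to 0.55) took either sign with the scaling and with the library left out. U5:38ABa had 68.2, 75.3 and 78.9 CPM in mutant midguts, against 56.5, 57.0 and 77.2 CPM in wild-type midguts. Only wild-type replicate 3 reached the mutant range, and the log2 fold change was 0.22 (interval -0.14 to 0.58, edgeR adjusted p = 0.523). U5:38ABb had a log2 fold change of -0.69 on its few counts (interval -1.92 to 0.55, edgeR adjusted p = 0.562), the largest in size of the 6 variants. With single libraries left out it ran from -1.41 without mutant replicate 2 to -0.38 without mutant replicate 3.

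To set aside any exchange of reads among the variants, their counts were summed and the sum was fitted with the rest of the table. The U5 sum reached 4514, 4746 and 2828 CPM in mutant replicates 1, 2 and 3, against 2646, 2756 and 3733 CPM in wild-type replicates 1, 2 and 3. Mutant replicate 3 lay within the wild-type range and wild-type replicate 3 between the mutant libraries. The log2 fold change was 0.40 with a 95% interval of -0.12 to 0.91 (SE 0.23, edgeR adjusted p = 0.413). It was 0.62 without mutant replicate 3, and then passed (edgeR adjusted p = 0.0801). A sum of the 6 variants other than U5:63BC, made after the values were seen, gave 0.17 (interval -0.24 to 0.59, edgeR adjusted p = 0.632). In bulk tissue, a change in the number of cells of a type and a change in RNA per cell cannot be told apart.

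**Figure D3:**
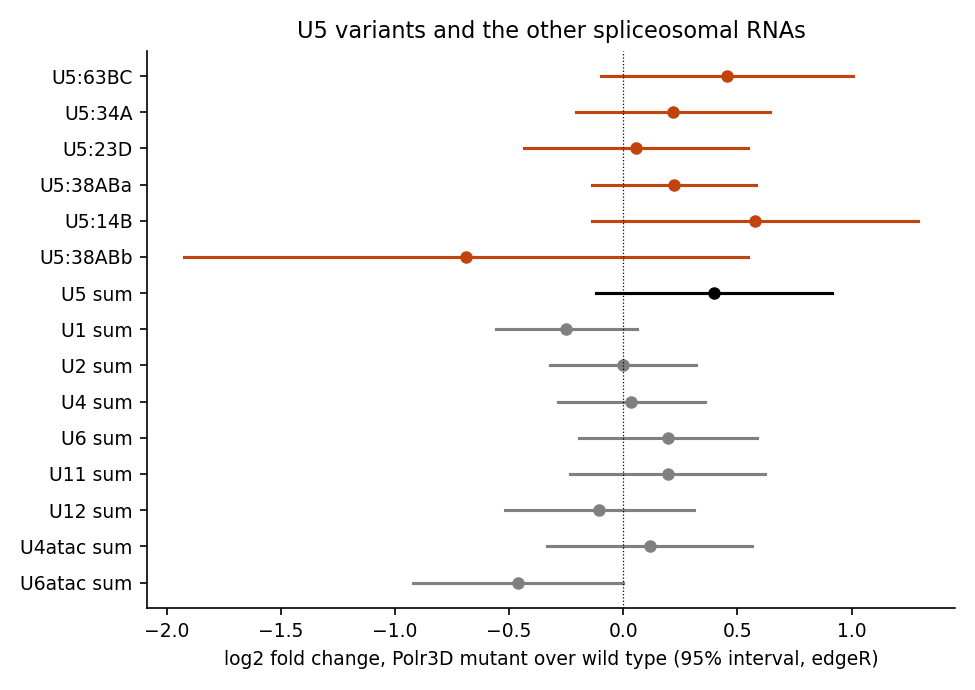
Log2 fold change of the Polr3D mutant over the wild type with its 95% interval from edgeR, for the 6 U5 variants tested (red), the U5 sum (black) and the sums of the other spliceosomal RNAs (grey). The interval of the U5 sum runs from -0.12 to 0.91 and includes 0, as do those of all 6 variants.

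U5 was next set against the other spliceosomal RNAs of the same libraries. Of 16 listed, 13 were tested and none was called in either direction, with 1 at an unadjusted p below 0.05, which was U6atac, the minor counterpart of U6, with a log2 fold change of -0.46 (edgeR adjusted p = 0.331). Class sums of U1, which recognises the start of the intron, were 5221 ± 286 CPM in mutant midguts and 6193 ± 109 CPM in wild-type midguts (SD, n = 3 each). All mutant libraries were lower, as in 10.7% of all transcripts, with a log2 fold change of -0.25 (interval -0.56 to 0.059, edgeR adjusted p = 0.405). U2 and U4, the RNA that keeps U6 inactive until the spliceosome forms, had log2 fold changes of 0.00052 (interval -0.32 to 0.32) and 0.034 (interval -0.29 to 0.36). U6, which forms the catalytic core, had 0.19 (interval -0.20 to 0.58). U5 took 33.5, 35.5 and 26.6% of all spliceosomal RNA counts in mutant replicates 1, 2 and 3, against 21.6, 23.2 and 28.4% in wild-type replicates 1, 2 and 3. The difference of 7.49 percentage points was larger than the SD of either genotype, at 4.67 in mutant midguts and 3.57 in wild-type midguts, but 1 library of each genotype overlapped the other (exact permutation p = 0.2).

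Ratios of counts per base were then formed with each of the major spliceosomal RNAs. U5 stood at 1.08, 1.22 and 0.753 times U1 in mutant replicates 1, 2 and 3, against 0.554, 0.597 and 0.804 times U1 in wild-type replicates 1, 2 and 3. The mean log2 ratio was 0.63 higher in mutant midguts. U5 stood at 2.99, 3.11 and 2.20 times U2 in mutant midguts, against 1.75, 2.03 and 2.57 times in wild-type midguts, a log2 difference of 0.39. To U4, the ratio was 7.55, 8.28 and 6.12 in mutant midguts, against 4.80, 5.55 and 6.78 in wild-type midguts, a log2 difference of 0.36. The ratio to U6 varied least between replicates, with 12.9, 12.2 and 11.003 in mutant midguts, against 9.87, 9.96 and 11.4 in wild-type midguts, a log2 difference of 0.21. In each of these 4 ratios mutant replicate 3 was the lowest mutant and wild-type replicate 3 the highest wild-type library, and these overlapped (exact permutation p = 0.2 for each). The 4 ratios and the share of spliceosomal RNA counts rest on the same U5 counts, so they are not independent results. Listed copies differ in number between classes and the recovery of an RNA depends on its length and modification, so these ratios do not give the numbers of molecules.

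**Figure D4:**
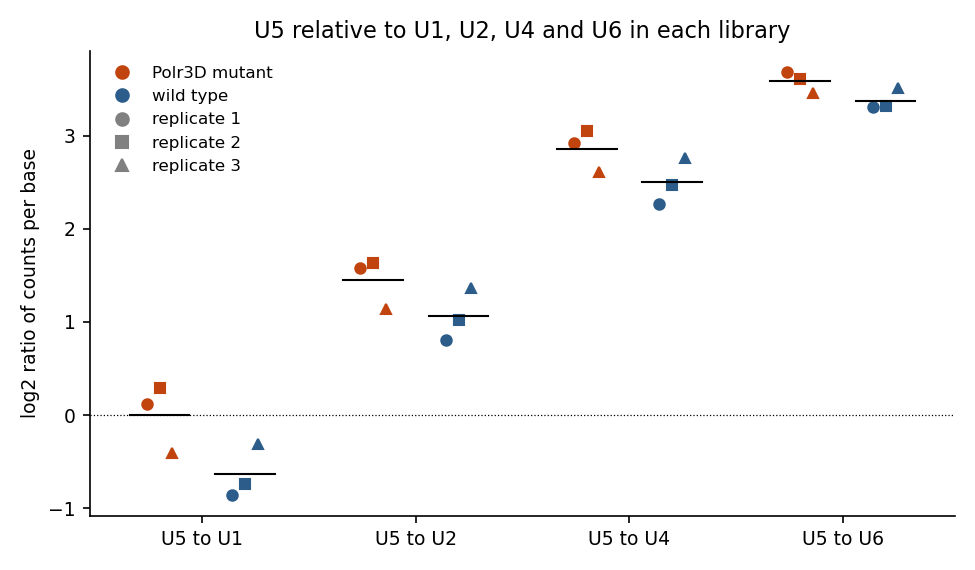
Log2 ratio of summed U5 counts per base to those of U1, U2, U4 and U6 in each library, with the Polr3D mutant left of the wild type and bars at the means. Mutant means are higher by 0.63, 0.39, 0.36 and 0.21 for U1, U2, U4 and U6, and replicate 3 of each genotype overlaps the other genotype.

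The pattern of U5 over the 6 libraries was finally compared with that of 324 other transcripts of at least 10 CPM, by the root mean square difference of log2 CPM after each transcript was centred on its mean. The nearest was 5SrRNA:CR33434, a 5S ribosomal RNA, at 0.058, where the median of the 324 was 0.41. It was followed by snoRNA:Psi28S-3405a at 0.12 and snoRNA:Psi28S-3405d at 0.12, guides of pseudouridine formation in the 28S ribosomal RNA. The U5 sum lay at 0.40, 0.46 and -0.29 around its mean in mutant replicates 1, 2 and 3, against -0.37, -0.32 and 0.12 in wild-type replicates 1, 2 and 3. 5SrRNA:CR33434 lay at 0.31, 0.48 and -0.21 in mutant midguts, against -0.39, -0.26 and 0.066 in wild-type midguts. Annotated lengths are 135 bases for this 5S rRNA and 140 for each of the 2 snoRNAs, against 123 for U5:63BC, and the part of length in the likeness was not tested.

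The variants were not equally near to the U5 sum. U5:63BC, which makes up most of the sum, lay at 0.046. U5:14B lay at 0.19, and 6.17% of the 324 other transcripts were nearer to the sum than it was. U5:23D, U5:34A and U5:38ABa lay at 0.28, 0.29 and 0.30, and between 13.0% and 15.4% of the other transcripts were nearer. U5:34A was high in mutant replicate 2 alone, at 0.53, and U5:38ABa was above its mean in mutant replicate 3, at 0.21, where U5:63BC was at -0.32. U5:38ABb lay at 0.76, on counts of 9 to 40 per library.

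**Figure D5:**
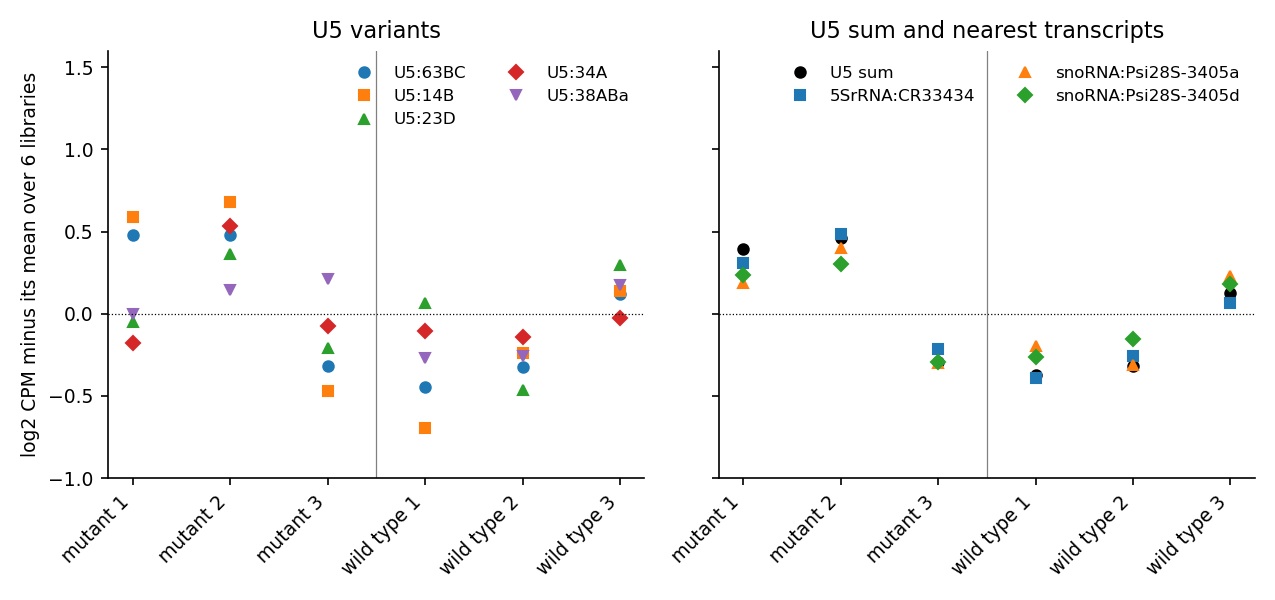
Log2 CPM of each transcript minus its mean over the 6 libraries, for 5 U5 variants (left) and for the U5 sum with the 3 other transcripts nearest to it (right), mutant libraries left of the line. U5:63BC and U5:14B are high in mutant replicates 1 and 2, and the U5 sum and 5SrRNA:CR33434 nearly coincide, at 0.46 and 0.48 in mutant replicate 2.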

How the data were processed

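Short RNAs of 6 midgut libraries were measured after size selection below 200 nucleotides and demethylation. Per the study's methods, the authors used Cutadapt (version 2.10) for trimming and Salmon (version 0.13.2) for quantification on a decoy-aware index of BDGP6 (release 32). Estimated counts (expected counts) were deposited for transcripts shorter than 300 bases, in whole numbers and not scaled for depth. Salmon divides reads that fit several transcripts, and size selection and incomplete demethylation alter recovery by length and modification.

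Of 531 transcripts, 527 were matched to the annotation (BDGP6, release 54, the same assembly). Counts were tested with edgeR (version 4.0.16, under R version 4.3.3), by filterByExpr (minimum count 10, total 15), TMM factors, glmQLFit and glmQLFTest on genotype alone, threshold an adjusted p of 0.10. Alternatives used DESeq2 (version 1.42.0), limma-voom (limma version 3.58.1), other scalings and filters, a replicate block and each library left out. The edgeR procedure was tested on simulated data. Shares and ratios were compared by two-sided exact permutation. Wilson intervals treat PCR copies as independent and so hold counting error only. Replicates differed far beyond counting noise (chi-square divided by its degrees of freedom was 183 to 1243 over the table), so each counted as 1 sample.

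All U5 variants were reported, with values in every library for those holding at least 1% of U5 counts on average and for others where named, other spliceosomal RNAs as class sums and calls, and the 3 transcripts nearest in pattern (log2 CPM, prior count 2). The members and lists were chosen with earlier results of these data known.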

Additional observations from a re-analysis of the deposited data

How the results depend on the processing

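The number of U5 variants called was 0 in all alternatives but 2: scaling on nuclear tRNAs gave 4, all lower, where 327 of 411 transcripts were called, and leaving out single libraries gave 0 to 2. The U5 sum kept a positive log2 fold change in 15 of 16 alternatives. By scaling, it was -0.22 on nuclear tRNAs, 0.23 on mitochondrial tRNAs, 0.24 with total counts only and 0.51 on snoRNAs, against 0.40 with TMM. With single libraries left out the U5 sum was at 0.30 to 0.62, the highest and only call without mutant replicate 3. Scaling moved the median log2 fold change of all transcripts, to -0.69 on nuclear tRNAs, -0.24 on mitochondrial tRNAs and -0.22 with total counts only, against -0.052 with TMM. Relative to that median the U5 sum stood higher by 0.32 to 0.65 in the main fit and the 16 alternatives fitted on it. A change of scaling shifts all fold changes nearly alike, so the 0.45 to 0.48 across scalings was fixed in advance. Nuclear tRNAs held more counts in every mutant library than in any wild-type library, so scaling on them lowers the other fold changes. On nuclear tRNAs the log2 fold changes were -0.17 for U5:63BC, -0.039 for U5:14B, -0.59 for U5:23D, -0.44 for U5:34A, -0.42 for U5:38ABa and -1.34 for U5:38ABb, of which the last 4 were called. U5:23D was also at -0.12 with total counts only and -0.14 on mitochondrial tRNAs, and at -0.13 to 0.23 with single libraries left out, where U5:34A was at -0.010 to 0.35. As a share of all counts U5 was 0.379% in mutant and 0.322% in wild-type midguts, a difference of 0.0578 percentage points. Its exact permutation p was 0.4, against 0.2 for the share of spliceosomal RNA counts. These differences refer to unlike totals, so their sizes cannot be set against each other. With the replicate block the U5 sum had 0.38 (edgeR adjusted p = 0.575) and no U5 variant was called, while 14 of 411 transcripts were. The same-numbered libraries did not deviate together (correlations of -0.26 to -0.023), and none of the 3 mutant libraries correlated best with its own number. Pairing by number cannot change the mean differences of the shares and ratios, only their p values. The exact sign-flip p was 0.75 for the 2.55 percentage points of U5:63BC. It was 0.5 for the 7.49 of the spliceosomal share and for the log2 differences of 0.63, 0.39, 0.36 and 0.21 to U1, U2, U4 and U6. With 3 pairs this p cannot go below 0.25. With 3 libraries a genotype, the interval of the U5 sum leaves a log2 change of up to 0.91 undetected.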

Other observations

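The 10 transcripts nearest to the U5 sum over the 6 libraries, counted after the values were seen, came from several classes. They held 4 snoRNAs, 2 5S rRNAs and 2 nuclear tRNAs (tRNA:Glu-CTC-2-1 and tRNA:Glu-CTC-1-1, at root mean square differences of 0.15 and 0.16). The others were U6:96Ab at 0.14 and U7, an RNA that acts in the processing of histone messenger RNAs, at 0.17. None of the U1, U2 or U4 transcripts was among the 10. The snoRNAs were also the class with the most listed transcripts, and U1, U2 and U4 had few. How many of the compared transcripts belonged to each class was not counted. These class counts, and the absence of U1, U2 and U4, therefore do not show that any class was over- or under-represented.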
